A study of Mus musculus with 18 samples.

Results

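The 35 genes described here encode the enzymes of glycolysis, the transporters of glucose and lactate, the kinases that regulate pyruvate dehydrogenase, and targets and regulators of the hypoxia response. They were taken by symbol from a deposited count table of 55487 genes. Each of the 35 symbols was found, and all 35 passed the filter on low counts that left 16432 genes for testing. The symbol Aldoa stood on 2 rows, of which the annotated aldolase gene ENSMUSG00000030695 was used.

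Poly(A) RNA was sequenced from primary mouse Leydig cells, the steroid-producing cells of the testis interstitium, in 18 cultures that formed 6 groups of 3. Cells were transfected with siNC, a control siRNA, or with siprdx1, which targets the gene of the peroxide-reducing enzyme peroxiredoxin 1 (Prdx1). In each siRNA arm there were untreated cells, cells given 200 µM H2O2 for 30 min (siNC+H2O2, siprdx1+H2O2), and cells given H2O2 and then 5 µM fluvastatin, a statin that inhibits HMG-CoA reductase (siNC+H2O2+FV, siprdx1+H2O2+FV). The groups without fluvastatin received 0.1% DMSO, and this last step lasted 6 h in every group. Whether the fluvastatin groups also received DMSO is not given in the sources used here, so fluvastatin and a possible difference in vehicle cannot be told apart. No group received fluvastatin without H2O2, so the fluvastatin effect was measured only after H2O2. All groups were transfected, and the knockdown was transient. The labels call the replicates biological without naming separate animals, so the p-values measure the spread between these cultures, which may be technical. The comparisons address what H2O2 and fluvastatin change and whether that depends on Prdx1.

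Glycolysis splits glucose into pyruvate in the cytosol. Glucose enters through carriers such as GLUT1 (Slc2a1), is trapped as glucose 6-phosphate by hexokinases, passes the committed step at phosphofructokinase, and leaves as lactate through monocarboxylate transporters when pyruvate dehydrogenase is held off by its kinases. When oxygen is low, prolyl hydroxylases no longer mark HIF-1α for destruction, and HIF-1 binds short RCGTG elements (ACGTG or GCGTG) near many of these genes. Leydig cells use glucose and reducing power for steroid synthesis, and interstitial macrophages are their neighbours in the testis.

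Totals ranged from 15201530 to 23898435 counts a library, and the 35 genes took between 0.486% and 0.569% of them. Prdx1 stood between 426 and 576 CPM (counts after division by TMM-adjusted library totals) in the siprdx1 libraries and between 1279 and 1690 in the siNC libraries, a mean log2 difference of -1.54 (exact permutation within treatment, two-sided p = 0.00025, the smallest it can give). The labelled cell type was checked against 9 Leydig markers: Cyp11a1 averaged 712 CPM and Star 286 CPM, whereas Cyp17a1 and Hsd17b3 were near 0 (0.0318 and 0.067 CPM). RNA of genes that mark other testis cells was present. Lyz2, a macrophage gene, averaged 5677 CPM, and the lowest of the 17 macrophage markers, Aif1, averaged 9.71 CPM. In the fibroblast list Col1a1 averaged 3716 CPM, Col1a2 4377, Col3a1 5662, Dcn 2987 and Pdgfra 888. In the same list Mfap5 averaged 72 CPM, Dpt 19.4, Lum 5.26 and Thy1 0.298. Germ cell and erythrocyte markers were near 0. In such bulk RNA, fewer cells of a type and less RNA per cell cannot be told apart. The deviations of libraries from their group mean were linked to gene GC content, most in libraries 1 and 2 of siprdx1+H2O2 (correlations -0.668 and 0.678), and nearly as much in siprdx1 library 2 (0.649), siNC+H2O2+FV library 3 (0.589) and siNC library 2 (-0.522). Values without both siprdx1+H2O2 libraries are given beside results that use them. That arm then holds 1 library, which is assumed to vary like the other groups, so a call lost in this way can come from the loss of replicates alone.

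Because several of these genes moved together, the DNA before their start sites is shown first. RefSeq promoter windows (GRCm38.p6) were found for 34 of the 35 genes, all but Slc2a3. In the 250 bases before the start, ACGTG on either strand was present in 21 of the 34 genes (61.8%) and in 18.5% of all 27025 genes, and GCGTG in 22 (64.7%) and 30.9%. A gene counted if any of its windows held the letters. The 34 genes had 51 windows and all 27025 genes had 32851, so more bases per gene were searched in the set. The windows of the 34 genes were also richer in GC (median 60.4% against 52.4%) and in CpG pairs (13 against 6 a window), so their content of letters that hold a CpG differs from that of other genes. Among the 7 genes that rose with fluvastatin in both siRNA arms (below), 6 had ACGTG and 5 had GCGTG, and among the other 27 genes 15 and 17 did. CACGTG, the E-box bound by MYC and related factors, which contains ACGTG, was present in 8 of 34 genes (23.5%) and 6.86% of all genes, and TGACGTCA, the cyclic AMP response element, in 1 (2.94%) and 1.77%. A match describes these letters only and does not show binding. The windows of the 3 genes below were chosen because they carried the largest rises with fluvastatin in siNC cells, and Pgk1, a long-known HIF-1 target that passed in none of the 12 contrasts, is set beside them. Capitals mark ACGTG and GCGTG on either strand, and each window ends at the base before the annotated gene start. The ACGTG of Slc2a1 lies after that base, in the stretch of its RefSeq window that is not printed.
Hk2, chr6:82774455-82774704, minus strand: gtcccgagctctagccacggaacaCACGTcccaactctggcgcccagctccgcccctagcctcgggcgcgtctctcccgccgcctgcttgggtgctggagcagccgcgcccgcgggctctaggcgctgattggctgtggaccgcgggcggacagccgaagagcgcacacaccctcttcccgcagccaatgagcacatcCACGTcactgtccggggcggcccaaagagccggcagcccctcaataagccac
Slc2a1, chr4:119108495-119108710, plus strand: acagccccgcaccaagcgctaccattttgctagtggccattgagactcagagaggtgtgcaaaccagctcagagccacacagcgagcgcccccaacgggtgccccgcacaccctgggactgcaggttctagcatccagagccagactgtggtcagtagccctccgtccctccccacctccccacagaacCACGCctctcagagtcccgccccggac
Pdk4, chr6:5496310-5496528, minus strand: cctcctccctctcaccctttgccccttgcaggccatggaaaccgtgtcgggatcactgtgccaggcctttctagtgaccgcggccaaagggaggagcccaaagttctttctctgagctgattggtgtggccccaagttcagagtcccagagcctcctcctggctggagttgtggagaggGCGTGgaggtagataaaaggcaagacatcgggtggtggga
Pgk1, chrX:106186850-106187099, plus strand: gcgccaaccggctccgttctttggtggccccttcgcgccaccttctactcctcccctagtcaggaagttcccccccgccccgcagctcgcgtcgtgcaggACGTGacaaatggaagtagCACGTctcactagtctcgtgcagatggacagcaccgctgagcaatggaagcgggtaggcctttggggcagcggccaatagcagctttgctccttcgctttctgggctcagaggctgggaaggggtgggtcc

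In untreated siNC cells the levels per kb of exon spanned from aldolase A (Aldoa, 306 ± 30.5 CPM per kb, SD, n = 3) to the prolyl hydroxylase Egln3 (0.695 ± 0.125). Pyruvate kinase (Pkm, 214 ± 13.3) ranked second and did not overlap with Aldoa. Lactate dehydrogenase A (Ldha, 122 ± 7.95) and triosephosphate isomerase (Tpi1, 120 ± 10.9) came next and overlapped, as did glucose phosphate isomerase (Gpi1, 72.2 ± 2.91) and lactate dehydrogenase B (Ldhb, 72.2 ± 4.07). The genes that later rose with fluvastatin lay lower, with Hif1a at 23.7 ± 2.37, Pdk4 at 18.01 ± 0.566, Hk2 at 17.2 ± 0.235, Vegfa at 10.9 ± 0.447, Slc2a1 at 8.35 ± 0.712 and Pfkfb3 at 4.42 ± 0.170 CPM per kb. Gapdh stood at only 15.9 ± 0.239 CPM per kb. This level and those of other glycolytic enzymes are uncertain, because near-identical gene copies (90% identity over at least 300 bp) exist for 11 of the 35 genes: 160 for Gapdh, 11 for Ldha, 6 each for Eno1 and Pkm, and fewer for Gpi1, Aldoa, Tpi1, Pgk1, Pgam1, Ldhb and Bnip3, and how shared reads were counted is not given in the sources used here. None were found for Slc2a1, Hk2, Pfkfb3, Slc16a1, Pdk4, Vegfa, Egln3 or Hif1a. The strand setting of the counting is also not given, so reads of genes that overlap on the other strand, as for Slc2a1, Hif1a, Ankrd37 and Gapdh, could be included.

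Fluvastatin gave the largest changes in the set. A gene was called changed at a Benjamini-Hochberg adjusted p below 0.05 over all 16432 genes in edgeR's quasi-likelihood test. After H2O2 in siNC cells, 8 of the 35 genes rose with fluvastatin (22.9%; 13.5% of all genes rose) and 6 fell (17.1%; 11.3% of all genes fell, and 24.9% changed in either direction). In siprdx1 cells 9 rose (25.7% against 12.6%) and 2 fell (5.71% against 11%; 23.6% in either direction). The median log2 change of the 35 genes was -0.07 in siNC and 0.09 in siprdx1, and that of all genes -0.01 in both. Scaled by library totals alone, which moved the median of all genes to -0.114 in siNC and -0.108 in siprdx1, 13 of the 35 fell in siNC (23.3% of all genes) and 5 in siprdx1 (22.1% of all genes).

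**Figure D1:**
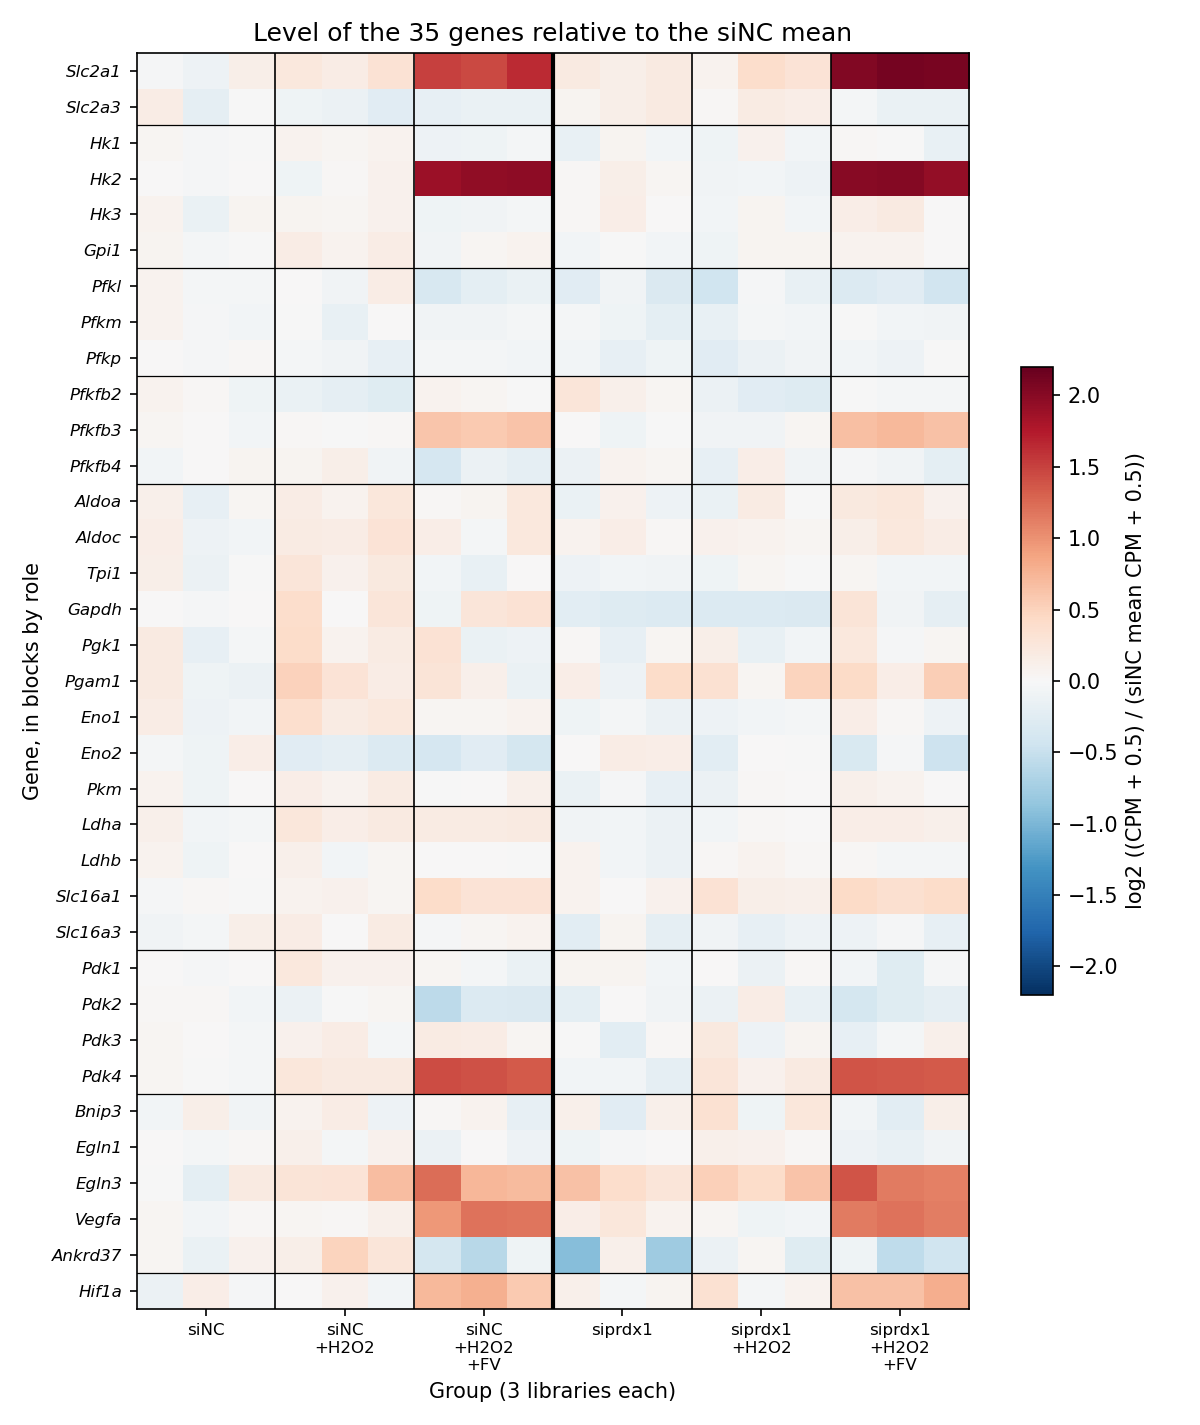
Level of each of the 35 genes (vertical axis, in blocks by role) in each of the 18 libraries (horizontal axis, 3 a group), as log2 of (CPM + 0.5) over the siNC mean plus 0.5. Red cells stand out in the 6 fluvastatin libraries for Slc2a1, Hk2, Pfkfb3, Pdk4, Egln3, Vegfa and Hif1a, and the blocks of lower glycolysis hold pale cells.

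The glucose carrier gene Slc2a1 (chr4:119108711-119137983, plus strand, GRCm38) measured 34.4, 32.7 and 36.5 CPM in the 3 siNC+H2O2 libraries and 84.1, 81.0 and 92.3 with fluvastatin. In siprdx1 cells the values were 30.8, 38.5 and 36.0 CPM without and 121, 127 and 126 CPM with fluvastatin. Every fluvastatin library lay above every other, and the 3 siprdx1 ones lay above the 3 siNC ones. The change was 2.48-fold in siNC (log2 1.31 ± 0.08 SE, adjusted p = 5.53e-12) and 3.54-fold in siprdx1 (1.82 ± 0.08, adjusted p = 8.39e-15). The second carrier, GLUT3 (Slc2a3), did not pass in either arm, with 11.4 to 12.7 CPM against 11.9 to 12.2 in siNC and 13.9 to 15.6 against 12.2 to 13.2 in siprdx1 (log2 -0.25, adjusted p = 0.0601).

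Among the hexokinases only hexokinase 2 (Hk2, chr6:82725025-82774454, minus strand), the inducible form found on the mitochondrial surface, passed the test. It measured 96.6, 105 and 109 CPM in siNC+H2O2 and 378, 397 and 403 CPM with fluvastatin. In siprdx1 cells it measured 97.3, 98.5 and 94.5 CPM without and 411, 416 and 395 CPM with fluvastatin. The groups with and without fluvastatin were far apart and the siRNA arms overlapped. The fold change was 3.79 in siNC (log2 1.92 ± 0.05, adjusted p = 3.05e-18) and 4.21 in siprdx1 (2.07 ± 0.05, adjusted p = 4.89e-19), the largest of the 35 genes in both arms. The constitutive hexokinase 1 (Hk1), hexokinase 3 (Hk3) and the isomerase Gpi1 had log2 values from -0.15 to -0.12 in siNC and from -0.03 to 0.14 in siprdx1, with adjusted p of 0.0872 or more.

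The 3 phosphofructokinase subunits changed little. The liver-type subunit Pfkl fell by 0.26 on the log2 scale in siNC (adjusted p = 0.0323) and measured -0.13 in siprdx1 (adjusted p = 0.347; 0.0473 without siprdx1+H2O2 library 1), and the muscle and platelet types Pfkm and Pfkp did not pass. Their regulators, the bifunctional enzymes that make and remove fructose 2,6-bisphosphate, the strongest activator of phosphofructokinase, did not move as a family. Pfkfb3, the form with the highest kinase activity, measured 33.9, 33.2 and 34.2 CPM in siNC+H2O2 and 51.1, 50.0 and 52.2 CPM with fluvastatin. In siprdx1 it measured 31.7, 31.5 and 34.5 CPM without and 53.2, 54.9 and 52.3 CPM with fluvastatin. The groups did not overlap, and the gene rose 1.51-fold in siNC (log2 0.60 ± 0.06, adjusted p = 4.78e-08) and 1.64-fold in siprdx1 (0.71 ± 0.06, adjusted p = 1.67e-09). Pfkfb2 rose by log2 0.24 in siNC (adjusted p = 0.0309) and measured 0.19 in siprdx1 (0.0888), while Pfkfb4 fell by 0.26 in siNC (0.0421) and measured -0.07 in siprdx1 (0.643).

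**Figure D2:**
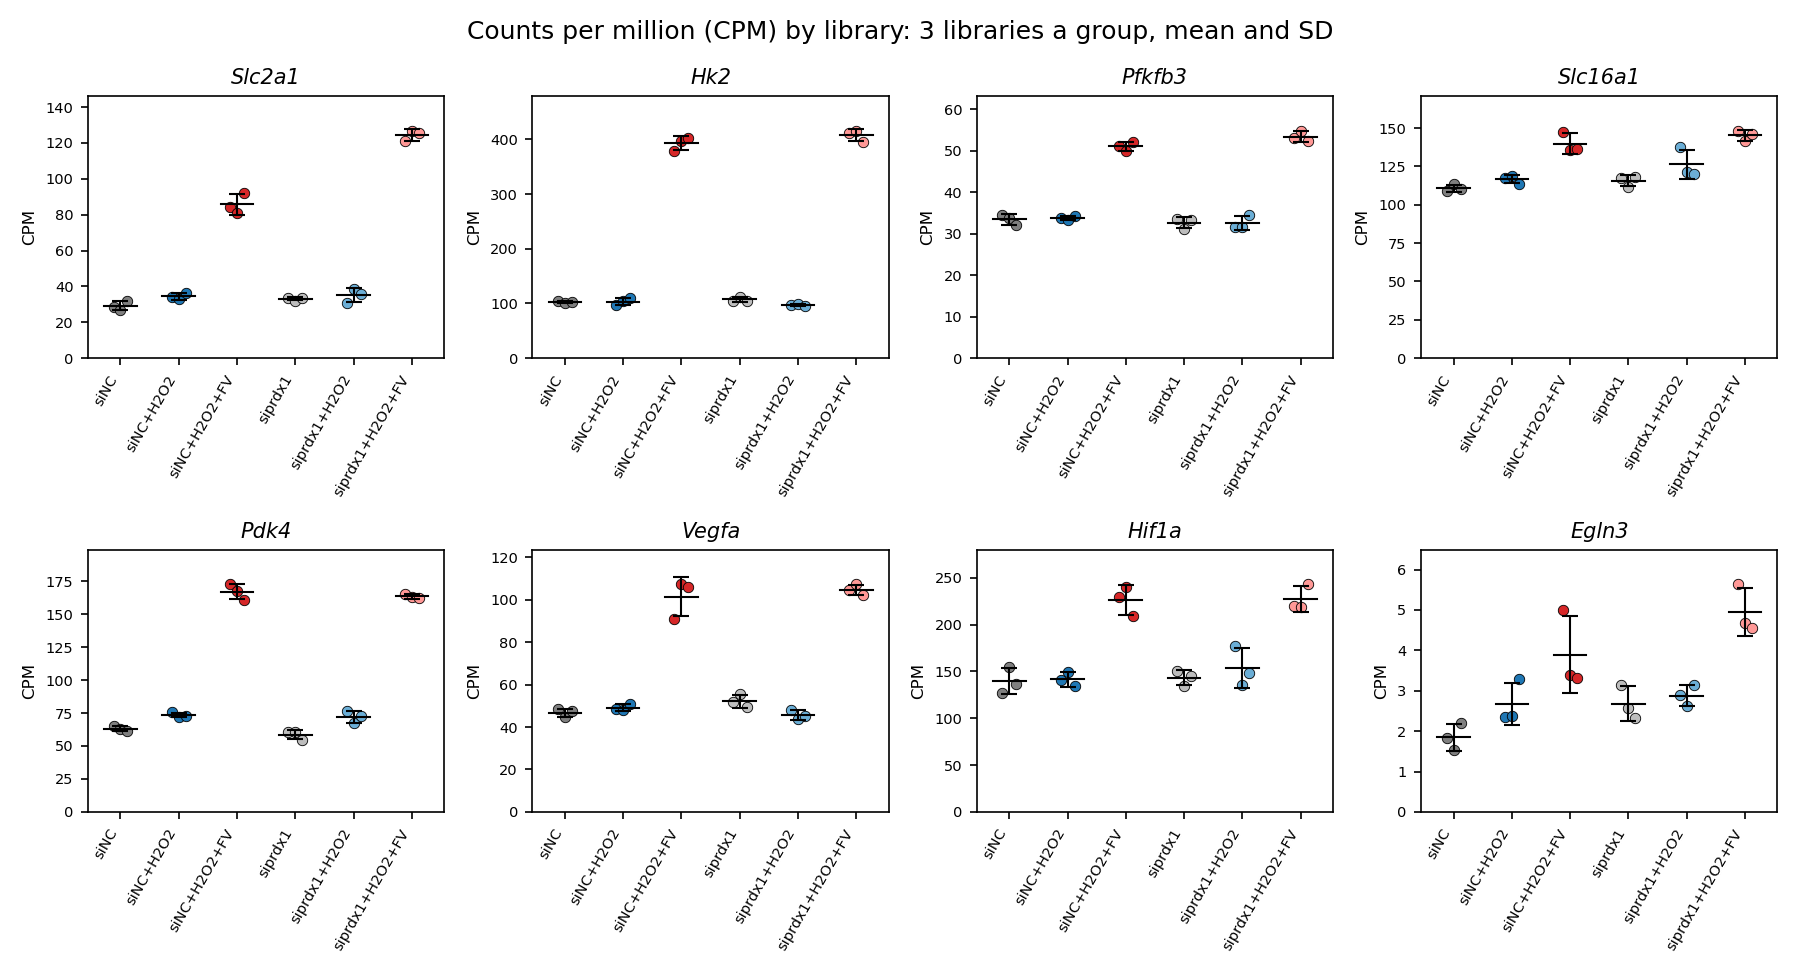
CPM (vertical axes, from 0) in the 6 groups (horizontal axes) of the 7 genes that rose with fluvastatin in both siRNA arms and of Egln3, which rose in siprdx1. Points are libraries, lines and bars the mean and SD of 3; within each arm the fluvastatin points lie above the H2O2 points in every panel, with narrow gaps for Slc16a1 (120 to 137 against 141 to 148 in siprdx1) and for Egln3 in siNC (3.28 and 3.30 at the nearest).

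The 9 genes of lower glycolysis, from aldolase to pyruvate kinase, showed small changes. In siNC all 9 had a log2 value below 0 with fluvastatin (median -0.105; all genes -0.01), and of these Tpi1 fell by 0.26 (adjusted p = 0.00328) and enolase 1 (Eno1) by 0.21 (adjusted p = 0.0262). In siprdx1, 7 of the 9 were above 0 (median 0.10; all genes -0.01), and Gapdh rose by log2 0.33 ± 0.11 (adjusted p = 0.0324). Aldolase C, phosphoglycerate kinase (Pgk1), phosphoglycerate mutase (Pgam1), neuron-type enolase (Eno2), Aldoa and Pkm passed in neither arm. The list of 17 macrophage markers moved in the same way beside them, with a median of -0.10 and 7 markers fallen and 1 risen in siNC and a median of 0.09 and 2 risen in siprdx1. Its summed level was 9815 to 10502 CPM in siNC+H2O2, 8657 to 8769 in siNC+H2O2+FV, 8660 to 8865 in siprdx1+H2O2 and 9000 to 9449 in siprdx1+H2O2+FV, with none of the 17 near 0, and its part in these values was not tested. Libraries decided several of the calls. The Gapdh call in siprdx1 was lost without any of the 3 siprdx1+H2O2 libraries (adjusted p 0.0728 to 0.0842), which measured 52.9, 53.1 and 52.6 CPM, and without siprdx1+H2O2+FV library 1 (0.262; log2 0.18), which measured 79.8 CPM beside 62.2 and 57.4.

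**Figure D3:**
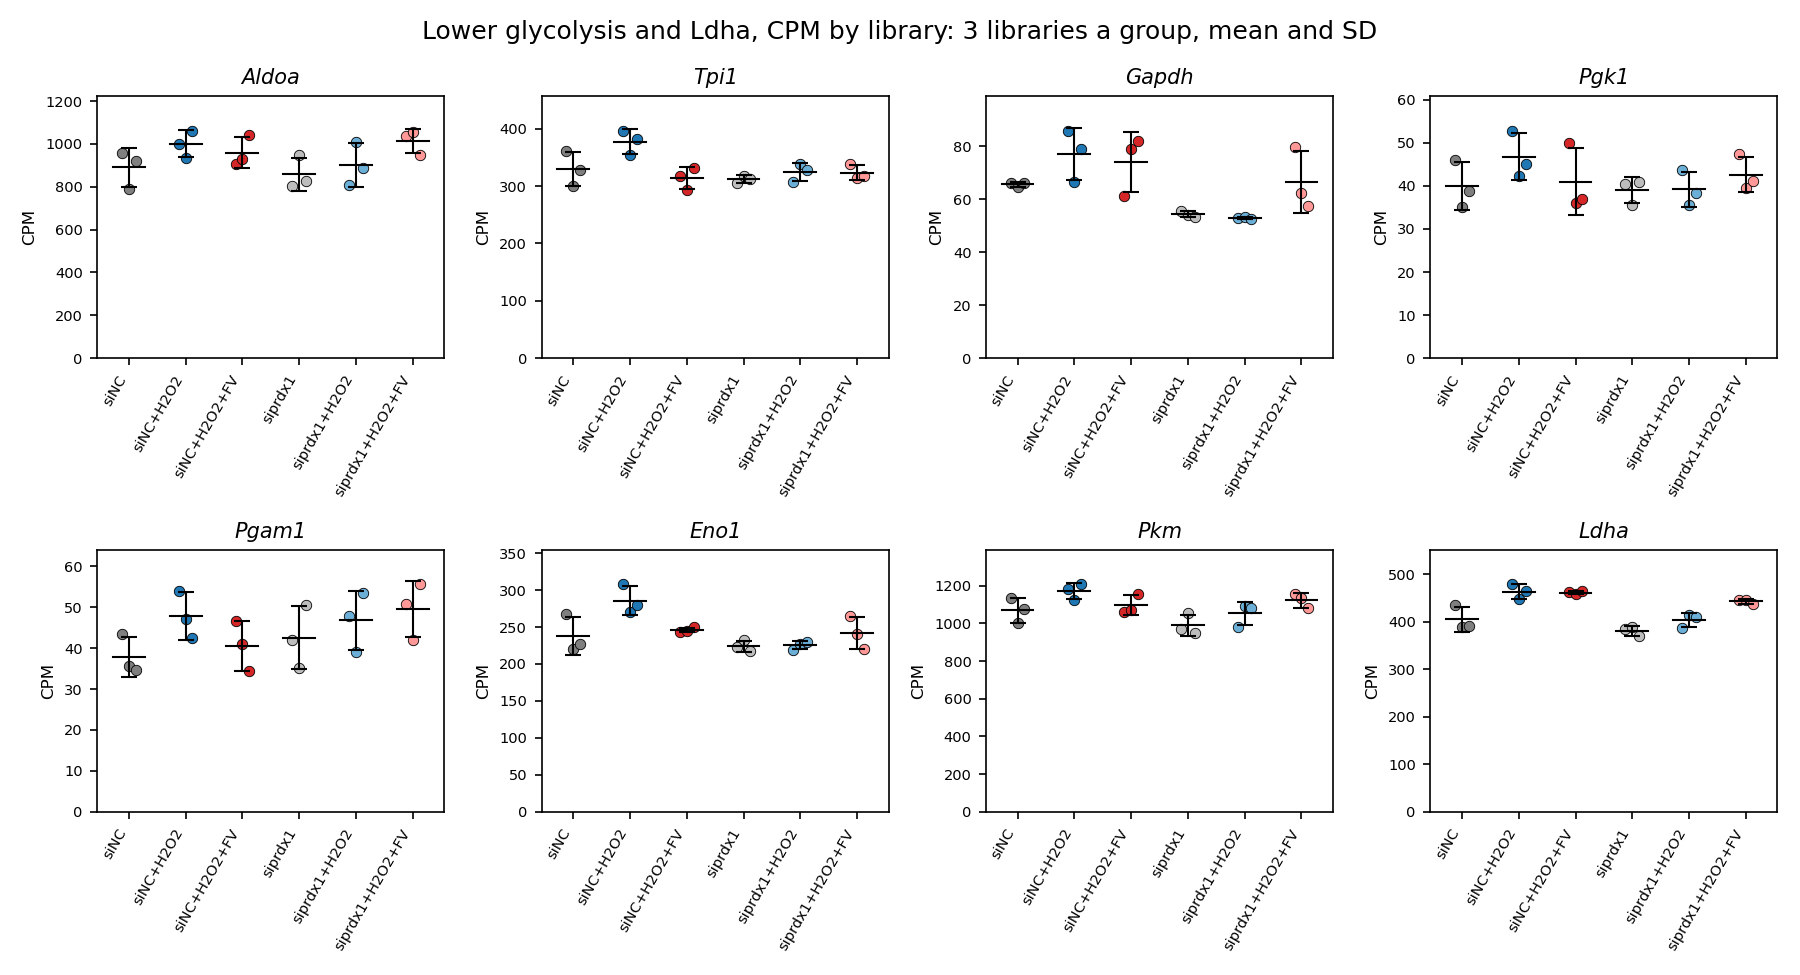
CPM (vertical axes, from 0) of 7 genes of lower glycolysis and of Ldha in the 6 groups (horizontal axes), with points for libraries and lines and bars for the mean and SD of 3. The siNC+H2O2 points lie above siNC for Eno1 (270 to 308 against 220 to 267) and Ldha (447 to 479 against 388 to 435), and the siprdx1+H2O2 points of Gapdh lie together near 53.

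In the lactate branch, the monocarboxylate transporter MCT1 (Slc16a1, chr3:104638668-104658462, plus strand), which carries lactate and pyruvate with a proton, rose in both arms. It measured 114 to 119 CPM in siNC+H2O2 and 136 to 147 CPM with fluvastatin, and 120 to 137 and 141 to 148 CPM in siprdx1, without overlap. The log2 change was 0.26 ± 0.06 in siNC (adjusted p = 0.00102) and 0.20 ± 0.05 in siprdx1 (adjusted p = 0.00881). The siprdx1 call was lost without siprdx1+H2O2 library 3 (adjusted p = 0.0641) and when libraries were scaled by their totals alone (0.181). The lactate exporter MCT4 (Slc16a3) and the dehydrogenases Ldha and Ldhb, which interconvert pyruvate and lactate, passed in neither arm, with log2 values from -0.08 to 0.13.

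Of the 4 pyruvate dehydrogenase kinases, which phosphorylate and switch off the entry of pyruvate into the citric acid cycle, Pdk4 rose and Pdk2 fell in both arms. Pdk4 (chr6:5483351-5496309, minus strand), a form also known to respond to fasting and glucocorticoids, measured 75.6, 72.4 and 72.9 CPM in siNC+H2O2 and 173, 168 and 161 CPM with fluvastatin. In siprdx1 it measured 76.4, 67.3 and 72.5 CPM without and 165, 163 and 162 CPM with fluvastatin. The arms overlapped almost fully, with a 2.27-fold rise in each (log2 1.18 ± 0.06 in siNC, adjusted p = 1.1e-13; 1.18 ± 0.06 in siprdx1, adjusted p = 7.63e-14). Pdk2 went from 39.0 to 43.9 CPM down to 28.4 to 34.2 CPM in siNC, where it fell by 0.38 ± 0.09 on the log2 scale (adjusted p = 0.00305), and from 38.0 to 47.4 down to 32.4 to 37.1 CPM in siprdx1, where it fell by 0.25 ± 0.09 (adjusted p = 0.0447). The siprdx1 call for Pdk2 was lost without siprdx1+H2O2 library 2 (adjusted p = 0.285; log2 -0.14) and without siprdx1+H2O2+FV library 1 (0.2) or 2 (0.0932). Pdk1, a HIF-1 target, and Pdk3 passed in neither arm (adjusted p of 0.0506 or more).

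The 5 hypoxia targets split. Vegfa (chr17:46016993-46032369, minus strand), the endothelial growth factor gene that HIF-1 induces, measured 48.4, 47.9 and 50.9 CPM in siNC+H2O2 and 90.7, 107 and 106 CPM with fluvastatin. In siprdx1 it measured 48.1, 43.7 and 45.0 CPM without and 104, 107 and 102 CPM with fluvastatin. It rose 2.07-fold in siNC (log2 1.05 ± 0.07, adjusted p = 2.45e-11) and 2.30-fold in siprdx1 (1.20 ± 0.07, adjusted p = 1.6e-12), and the groups with and without fluvastatin did not overlap.

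Egln3 (chr12:54178981-54203860, minus strand), the prolyl hydroxylase that HIF itself induces, was the lowest of the 35 genes in siNC per kb of exon. Its counts were 35 to 125 a library over all 18. It measured 2.36, 2.38 and 3.28 CPM in siNC+H2O2 and 4.99, 3.40 and 3.30 CPM with fluvastatin, and 2.89, 2.62 and 3.14 against 5.63, 4.68 and 4.54 CPM in siprdx1. It rose by log2 0.78 ± 0.19 in siprdx1 (adjusted p = 0.00301) and measured 0.52 ± 0.20 in siNC (adjusted p = 0.0571). Without siprdx1+H2O2 libraries 1 and 2 the siprdx1 value was log2 0.66 (adjusted p = 0.113), and in siNC the gene passed without siNC+H2O2 library 3 (0.0289) or siNC+H2O2+FV library 3 (0.0372).

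Egln1, the prolyl hydroxylase that sets HIF-1α in most cells, fell by 0.20 on the log2 scale in siprdx1 (adjusted p = 0.0146; 0.0533 without siprdx1+H2O2 library 1, 0.0753 without siprdx1+H2O2+FV library 2; log2 -0.14 and 0.297 without siprdx1+H2O2 libraries 1 and 2) and measured -0.13 in siNC (adjusted p = 0.099; 0.0464 without siNC+H2O2 library 2). Ankrd37, a small HIF-1 target with 14 to 54 counts a library, measured 2.08, 2.80 and 2.33 CPM in siNC+H2O2 and 1.29, 1.03 and 1.70 CPM with fluvastatin. In siprdx1 it measured 1.65, 1.91 and 1.47 CPM without and 1.71, 1.10 and 1.24 CPM with fluvastatin. It fell by 0.83 ± 0.29 on the log2 scale in siNC (adjusted p = 0.04) and measured -0.30 in siprdx1 (adjusted p = 0.543). The siNC call was lost without any of the 3 siNC+H2O2 libraries or without library 1 or 2 of siNC+H2O2+FV (adjusted p 0.0507 to 0.169). The mitophagy gene Bnip3 passed in neither arm, with 65.6 to 90.4 CPM in the H2O2 groups and 60.3 to 78.5 CPM with fluvastatin.

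Hif1a (chr12:73901375-73947530, plus strand), the gene of the oxygen-regulated subunit itself, measured 141, 149 and 134 CPM in siNC+H2O2 and 230, 240 and 209 CPM with fluvastatin. In siprdx1 it measured 177, 135 and 148 CPM without and 220, 219 and 243 CPM with fluvastatin. It rose 1.60-fold in siNC (log2 0.68 ± 0.09, adjusted p = 2.65e-06) and 1.48-fold in siprdx1 (0.57 ± 0.08, adjusted p = 2.35e-05), with no overlap. HIF-1 activity is set mainly at the protein, which was not measured. Of the smaller siNC calls, Pfkl, Pfkfb2, Pfkfb4 and Eno1 each rested on single libraries. The number of genes that fell in siNC went from 6 to 2 without siNC+H2O2 library 1, where Eno1 (adjusted p = 0.167), Pfkl (0.0653), Pfkfb4 (0.108) and Ankrd37 lost their calls, and to 3 without siNC+H2O2+FV library 2. Pfkl also lost its call without siNC+H2O2 library 3 (0.178) or siNC+H2O2+FV library 1 (0.154) or 2 (0.0719), Pfkfb4 without siNC+H2O2 library 2 (0.17) or siNC+H2O2+FV library 1 (0.2) or 3 (0.0646), Eno1 without siNC+H2O2+FV library 1 (0.0799) or 2 (0.0797), and Pfkfb2 without siNC+H2O2 library 2 (0.0562) or 3 (0.127) or siNC+H2O2+FV library 1 (0.0915) or 2 (0.0768).

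Markers of other cells also moved with fluvastatin. Of 6 smooth muscle markers, which include contractile genes that many cultured cells express, 5 rose in each arm, and their summed level went from 1320.5 to 1411 CPM in siNC+H2O2 to 2419 to 2575 CPM with fluvastatin, with none of the 6 near 0. The summed level of the 9 Leydig markers went from 1250 to 1269 CPM to 1632 to 1676 CPM in the same groups, with 2 of the 7 tested risen and 2 fallen (median log2 0.06) and with Cyp17a1 and Hsd17b3 near 0 throughout. Their part in the rises of Slc2a1, Hk2, Pdk4, Vegfa and Hif1a was not tested.

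On the scale of CPM per kb of exon, Hk2 was the most abundant hexokinase only in the groups given H2O2 and fluvastatin. Pfkfb3 was the most abundant bifunctional enzyme there, while the shares of Pfkfb3 and Pfkfb4 overlapped in untreated siNC cells. The leading pyruvate dehydrogenase kinase and glucose carrier took larger shares. The shares below compare these groups with untreated cells. They are shares of bulk RNA in which macrophage and fibroblast markers were also present, so they cannot be assigned to a cell type. In siNC+H2O2 the shares were 29.9% for Hk2, 36.4% for Pdk4, 39.4% for Pfkfb3 and 85.4% for Slc2a1. Hk2 made up 30.8% ± 1.07 (SD, n = 3) of the 3 hexokinases in siNC and 64.2% ± 0.455 in siNC+H2O2+FV, and 31.4% ± 0.442 and 62.9% ± 0.932 in siprdx1 and siprdx1+H2O2+FV. Hk3, the leading hexokinase in untreated siNC (43.2% ± 1.79), made up 22.5% ± 0.313 with fluvastatin at nearly the same level (24.2 and 23.0 CPM per kb). Pdk4 went from 33.8% ± 0.263 to 58.7% ± 0.769 of the 4 pyruvate dehydrogenase kinases in siNC, and from 33.0% ± 1.72 to 59.2% ± 2.04 in siprdx1. Pfkfb3 went from 38.5% ± 1.08, level with Pfkfb4 (40.9% ± 2.16), to 51.2% ± 1.52 of the bifunctional enzymes. Slc2a1 already made up 81.6% ± 1.87 of the 2 glucose carriers and reached 93.6% ± 0.392 in siNC+H2O2+FV and 95.3% ± 0.298 in siprdx1+H2O2+FV. Aldoa, Eno1, Pfkm, Ldha and Slc16a1 led their families in all 6 groups on this scale, as did Egln1, compared with Egln3 only. The order within a family rests on the exon length, which joins all annotated exons of a gene (13401 bp for Pfkp, 3340 bp for Pfkm). Not divided by length, the siNC means were 53.9 CPM for Pfkm, 66.1 for Pfkp and 89.8 for Pfkl. For the hexokinases they were 124 CPM for Hk1, 103 for Hk2 and 89.1 for Hk3.

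**Figure D4:**
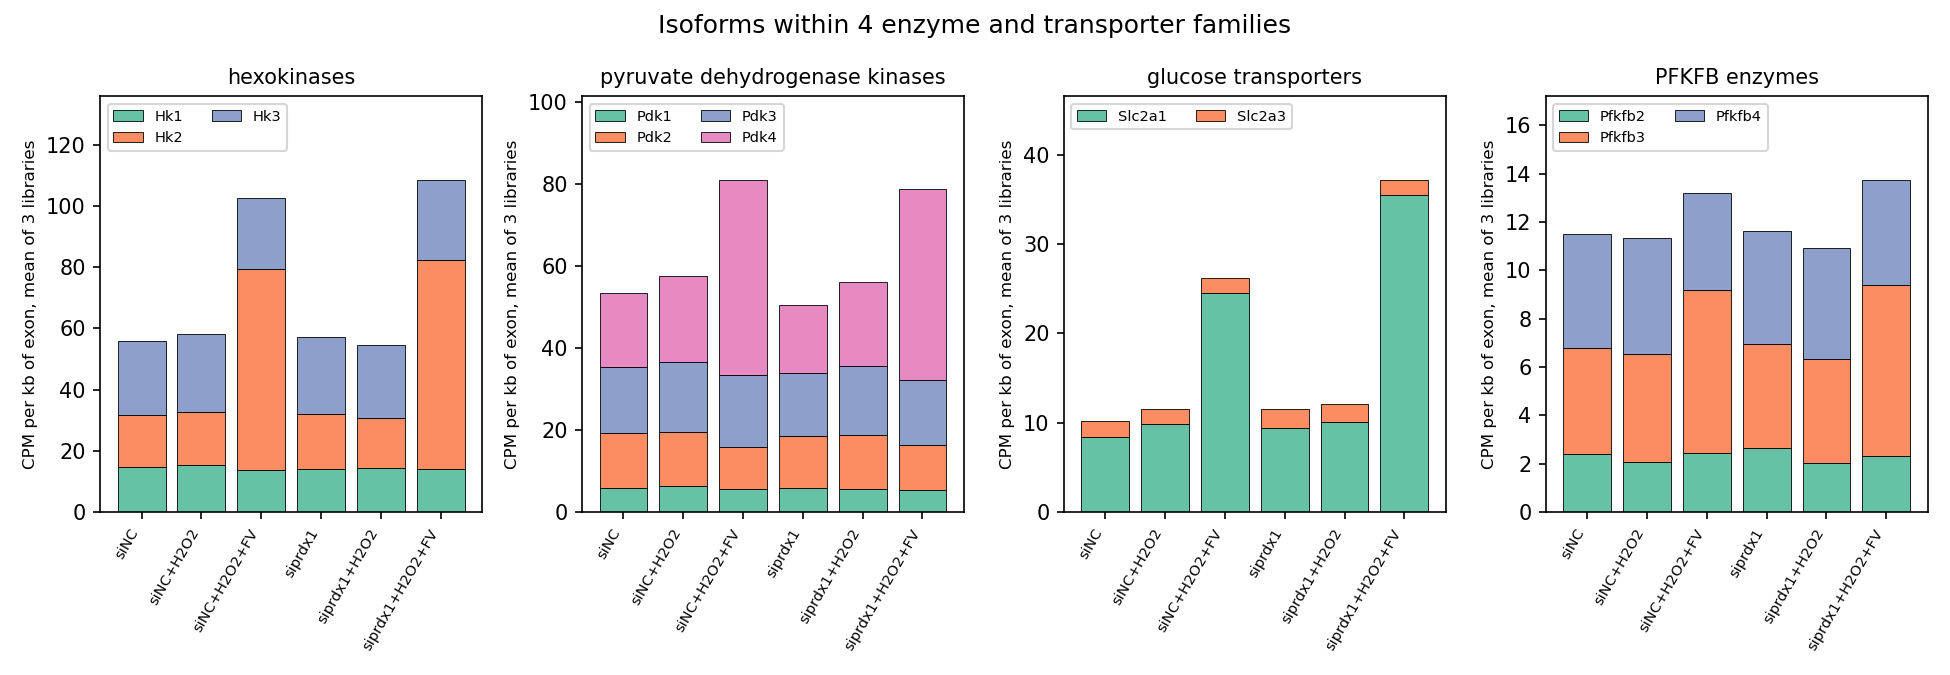
Mean CPM per kb of exon (vertical axes, 3 libraries) in the 6 groups (horizontal axes), stacked by gene within the hexokinases, pyruvate dehydrogenase kinases, glucose transporters and PFKFB enzymes. The Hk2, Pdk4, Slc2a1 and Pfkfb3 parts are taller in both fluvastatin groups, and Hk2 makes up 64.2% and 62.9% of the hexokinases there.

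The fluvastatin effects of the siRNA arms come from different libraries and can be set side by side. Of the 8 genes that rose in siNC and the 9 in siprdx1, 7 were shared, namely Slc2a1, Hk2, Pfkfb3, Slc16a1, Pdk4, Vegfa and Hif1a. Pdk2 alone fell in both, out of 6 and 2. Across the 35 genes the log2 changes of the arms had a Pearson correlation of 0.945 (0.717 over all genes tested), as a description across genes, which are not independent replicates. Large changes weigh most in this value. Small changes often differed in sign: 11 of the 35 genes were above 0 in siNC and 22 in siprdx1. In lower glycolysis 0 of 9 and 7 of 9 were.

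The difference between the arms was tested by the interaction of fluvastatin with knockdown. Of the 35 genes, 1 passed, Slc2a1, whose fluvastatin effect was larger in siprdx1 by log2 0.51 ± 0.11 (adjusted p = 0.0233; 0.463% of all genes were higher by this test and 0.189% lower, 0.651% in all). The Slc2a1 call rested on most libraries, as the closing values show. The other 6 genes that rose in both arms had interaction values from -0.11 to 0.15, with adjusted p of 0.378 or more. None of the 35 was lower by edgeR's interaction test, with 0 at an unadjusted p below 0.05 and 0 by DESeq2. In lower glycolysis 8 of 9 genes had an interaction above 0 (median 0.26; all genes 0.01), none of the 9 passed, and 16 of the 17 macrophage markers were also above 0 (median 0.235), whose part was not tested.

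**Figure D5:**
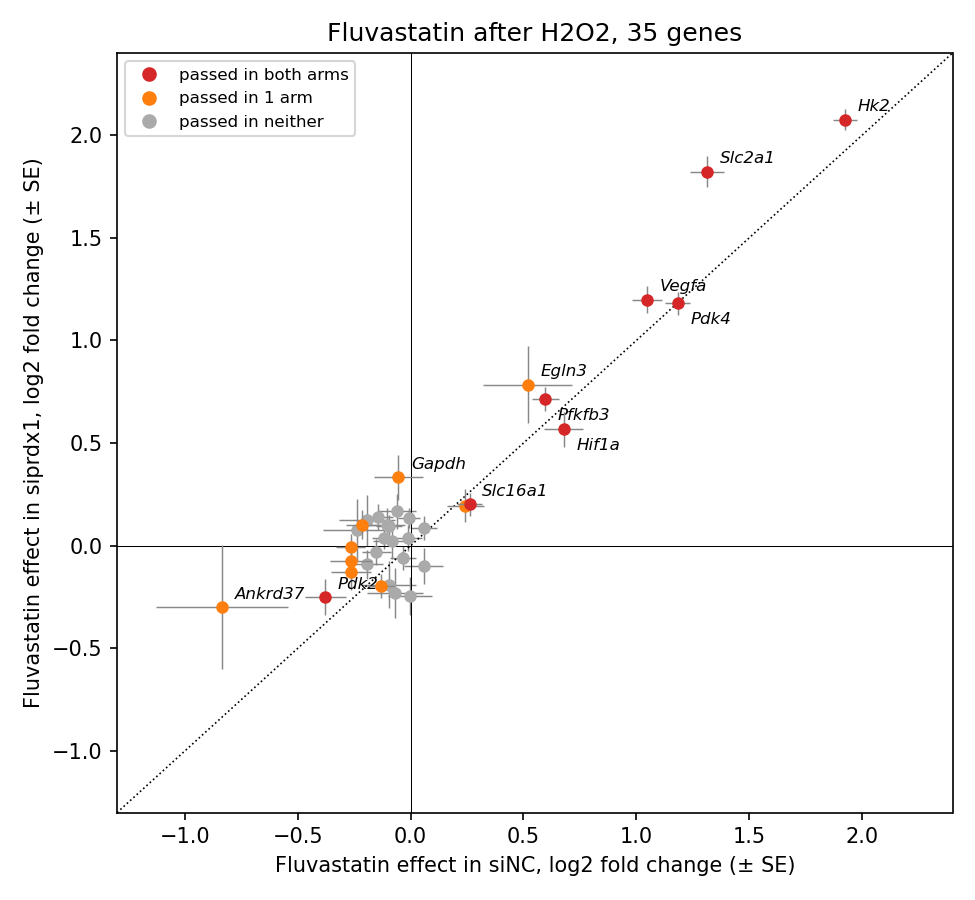
Log2 fold change with fluvastatin after H2O2 in siNC (horizontal axis) and in siprdx1 (vertical axis) for the 35 genes, with bars of 1 SE and a dotted line of equal change. Hk2, Vegfa, Pdk4, Pfkfb3, Hif1a and Slc16a1 lie near the line, and Slc2a1 lies above it (1.31 and 1.82).

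H2O2 alone, measured 6 h later, gave smaller changes, and the number called depended on the correction for GC content. In siNC cells 3 of 35 rose (8.57%; 2.36% of all genes rose and 6.95% changed in either direction): Eno1 by log2 0.26 ± 0.07 (adjusted p = 0.0214), Ldha by 0.19 ± 0.05 (0.0177) and Pdk4 by 0.22 ± 0.06 (0.0196). Ldha measured 388 to 435 CPM in siNC and 447 to 479 CPM in siNC+H2O2, and Pdk4 61.4 to 65.4 and 72.4 to 75.6 CPM, without overlap. None fell by edgeR (4.59% of all genes fell), with 2 below 0 at an unadjusted p below 0.05 and 0 by DESeq2. Of the 35 genes 29 were above 0 (median 0.07; all genes 0.01), including 8 of 9 in lower glycolysis (median 0.22), where the 17 macrophage markers had a median of 0.15 with 2 risen and a summed level of 8536 to 9455 CPM in siNC and 9815 to 10502 CPM in siNC+H2O2, whose part was not tested. With offsets for GC content and length, 10 of the 35 rose (4.02% of all genes). With the replicate number as a block, 5 genes rose in this contrast (3.23% of all genes), Tpi1 (log2 0.20) and Pgk1 (0.23) joining the 3. No gene of the 35 rose without siNC library 2 or without siNC+H2O2 library 1, 1 rose without siNC library 3, which was none of the 3 above, 1 of the 3 rose without siNC+H2O2 library 3, and 5 rose without siNC library 1. The Ldha call was also lost when only the compared groups were fitted (0.0524). Eno1 and Ldha have near-identical gene copies, and how shared reads were counted is not given.

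In siprdx1 cells H2O2 raised Pdk4 (log2 0.30 ± 0.06, adjusted p = 0.00158; 54.8 to 60.6 CPM against 67.3 to 76.4) and lowered Pfkfb2, which fell by 0.37 ± 0.08 on the log2 scale (adjusted p = 0.00396; 17.8 to 20.8 CPM against 14.2 to 15.7). That is 2.86% of the 35 in each direction, beside 2.48% of all genes that rose and 5.39% that fell (7.87% in either direction). The Pdk4 call was lost when only the compared groups were fitted (0.0563). A further gene rose without siprdx1 library 2 and a further gene fell without siprdx1+H2O2 library 1. No interaction of H2O2 with knockdown passed for the 35 genes in edgeR (0.243% of all genes passed, 0.0426% higher and 0.201% lower), with 4 below 0 and 0 above at an unadjusted p below 0.05, and 0 by DESeq2. Pdk4 thus passed in both arms under H2O2 and again under fluvastatin, and it measured 2.64 times its siNC level in siNC+H2O2+FV (log2 1.40 ± 0.06) and 2.78 times its siprdx1 level in siprdx1+H2O2+FV (1.48 ± 0.06).

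Against untreated cells, H2O2 followed by fluvastatin raised 9 of 35 genes in siNC (25.7%; 11.3% of all genes) and lowered 2 (5.71%; 11.6%; 23% of all genes in either direction), and raised 11 in siprdx1 (31.4%; 12.7%) and lowered 1 (2.86%; 12.9%; 25.5% in either direction). These comparisons share the fluvastatin libraries with those above and are given for genes not described in full there. Ldha rose by log2 0.19 in siNC (adjusted p = 0.00699) and 0.22 in siprdx1 (0.00186), and lost both calls when libraries were scaled by their totals alone (0.316 and 0.22). Eno2 fell by 0.35 in siNC (0.0287; 9.87 to 11.8 CPM against 8.03 to 8.81) and by 0.38 in siprdx1 (0.018). Egln3 rose by log2 1.06 ± 0.20 in siNC (adjusted p = 0.000372; 1.82, 1.53 and 2.19 CPM against 4.99, 3.40 and 3.30) and 0.88 ± 0.19 in siprdx1 (0.00126; 3.15, 2.58 and 2.31 CPM against 5.63, 4.68 and 4.54). Aldoa (0.24, adjusted p = 0.0452) and Pkm (0.18, 0.0232) rose in siprdx1, and each lost its call without siprdx1 library 1 or 3 or siprdx1+H2O2+FV library 1 or 2 (adjusted p 0.0629 to 0.172) and with scaling by library totals alone (0.391 and 0.607). The Eno2 calls were lost in siNC without siNC library 3 (0.158) or siNC+H2O2+FV library 1 (0.0838) or 3 (0.0878), and in siprdx1 without siprdx1 library 2 (0.0665) or 3 (0.0546) or siprdx1+H2O2+FV library 1 (0.086) or 3 (0.1).

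Knockdown of Prdx1 by itself left the 35 genes without a call. In untreated cells 0 rose and 0 fell by edgeR (0.657% and 1.67% of all genes, 2.33% in either direction), with 3 above 0 and 2 below 0 at an unadjusted p below 0.05 and 0 by DESeq2, and 1 fell without siprdx1 library 2. After H2O2, 3 were lower in siprdx1 (8.57%; 1.83% of all genes) and 0 higher by edgeR (0.901% of all genes; 2.73% in either direction), with 2 above 0 at an unadjusted p below 0.05 and 0 by DESeq2. Gapdh measured 85.9, 66.3 and 78.8 CPM in siNC+H2O2 and 52.9, 53.1 and 52.6 CPM in siprdx1+H2O2. The groups did not overlap, and the siNC+H2O2 libraries were spread while the siprdx1+H2O2 ones agreed within 1 CPM. Gapdh was lower by log2 0.54 ± 0.11 (log2 -0.54, adjusted p = 0.00767), Eno1 by 0.34 ± 0.07 (log2 -0.34, 0.00635) and Ldha by 0.20 ± 0.05 (log2 -0.20, 0.0308). Near-identical copies exist for all 3 genes (160 for Gapdh, 6 for Eno1 and 11 for Ldha). How shared reads were counted is not given, so these fold changes may include reads of copies. With offsets for GC content and length, 8 of the 35 were lower (4.06% of all genes), and 10 with the replicate block added (4.74%). All 3 calls were lost without siNC+H2O2 library 1 (adjusted p 0.0595, 0.0651 and 0.161), and that of Ldha also without siNC+H2O2 library 3 (0.105) or siprdx1+H2O2 library 1 (0.115) or 3 (0.0825). Without siprdx1+H2O2 libraries 1 and 2 the log2 values were -0.55, -0.31 and -0.18 (adjusted p 0.245, 0.216 and 0.384). The macrophage markers had a median of -0.18 in this comparison, with 1 of 17 fallen and 1 above 0, and their part was not tested. The siNC+H2O2 libraries are shared by this comparison, the H2O2 comparison and the fluvastatin comparison in siNC, so their values for lower glycolysis are not independent of each other.

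After H2O2 and fluvastatin, Slc2a1 was the 1 gene of the 35 that differed with knockdown, higher by log2 0.54 ± 0.07 in siprdx1 (1.45-fold, adjusted p = 5.14e-05; 2.86% of the 35 and 1.62% of all genes were higher). None was lower by edgeR (2.35% of all genes; 3.97% in either direction), with 0 at an unadjusted p below 0.05 and 0 by DESeq2. Averaged over the 3 treatments, 1 gene was higher in siprdx1 (2.86%; 3.93% of all genes) and 5 were lower (14.3%; 5.46%; 9.38% of all genes in either direction). Slc2a1 was higher (log2 0.25, adjusted p = 0.000665), and Gapdh (-0.32, 0.00187), Eno1 (-0.15, 0.0173), Ldha (-0.11, 0.0117), Pfkl (-0.18, 0.0293) and Slc16a3 (-0.17, 0.0343) were lower. The Slc2a1 average came mostly from the fluvastatin groups, with means of 85.8 CPM in siNC and 124 in siprdx1. Its means were 29.3 and 33.1 CPM in untreated cells and 34.5 and 35.1 CPM after H2O2. The number lower was 3 when 1 of siNC+H2O2 library 3, siNC+H2O2+FV library 2 or 3, siprdx1 library 1 or 3, or siprdx1+H2O2+FV library 3 was left out. Pfkl and Slc16a3 were the calls lost without single libraries (adjusted p 0.058 to 0.0731 and 0.0542 to 0.0901), Slc16a3 also without siNC library 3, siNC+H2O2 library 1, siprdx1+H2O2 library 2 or 3 or siprdx1+H2O2+FV library 1, and Pfkl also without siNC library 1. The number higher was 2 when 1 of siNC library 1, siNC+H2O2 library 3, siNC+H2O2+FV library 1 or siprdx1+H2O2 library 1 was left out.

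Genes of the same pathways outside the set were read from a second list. Of 57 further genes of glucose and pyruvate handling 47 were tested, and with fluvastatin 6 rose and 8 fell in siNC and 8 rose and 9 fell in siprdx1, where of all genes 13.5% rose and 11.3% fell in siNC and 12.6% rose and 11% fell in siprdx1 (medians -0.03 and 0.00, all genes -0.01 in both). Myc, a transcription factor that drives glycolytic genes, rose by log2 1.56 ± 0.07 in siNC (72.9 to 214 CPM, adjusted p = 4.36e-14) and 1.68 ± 0.07 in siprdx1. In siNC and siprdx1, phosphoglucomutase 2 (Pgm2) rose by log2 0.39 and 0.28, the glucose sensor Mlxip by 0.35 and 0.21, the pyruvate dehydrogenase subunit Pdha1 by 0.28 and 0.16, and the transporter Slc16a6 by 0.22 and 0.64. Mlxipl rose by 0.66 in siprdx1. Txnip, which restrains glucose uptake, fell by 0.80 ± 0.05 in siNC (1838 to 1056 CPM, adjusted p = 4.02e-12) and by 0.81 ± 0.05 in siprdx1, and its paralog Arrdc4 fell by 0.37 and 0.40. The phosphatases that switch pyruvate dehydrogenase back on, Pdp1 and Pdp2, fell by 0.57 and 0.66 in siNC and by 0.65 and 0.68 in siprdx1. Their direction was opposite to that of Pdk4 and the same as that of Pdk2 (log2 -0.38 in siNC and -0.25 in siprdx1), and Pdk1 and Pdk3 did not pass. H2O2 alone raised Myc in siNC (log2 0.48, adjusted p = 0.000118, 52.2 to 72.9 CPM). It lowered Mlxip in siNC (-0.27, 0.00646, 67.0 to 55.7 CPM) and in siprdx1 (-0.21, 0.0255). The rise of Mlxip with fluvastatin in siNC was from 55.7 to 71.2 CPM, beside 67.0 in untreated cells. In siprdx1 H2O2 alone raised Txnip (log2 0.24, 0.00156), Bsg (0.23, 0.0182) and Pdha1 (0.19, 0.0334). Pdp2 rose there by log2 0.39 (adjusted p = 0.0294), in the same direction as Pdk4. With knockdown in untreated cells Myc was higher (log2 0.27, adjusted p = 0.046) and Txnip lower (-0.25, 0.00297), and the Myc call was lost without any 1 of the 6 libraries (adjusted p 0.0936 to 0.166). The Pgm2 call in siprdx1 was lost without siprdx1+H2O2 library 2 (0.102) or 3 (0.115) or siprdx1+H2O2+FV library 1 (0.0528) or 3 (0.106). In siprdx1 the Pdha1 call was lost without siprdx1+H2O2 library 2 (0.104) or 3 (0.125) or any 1 siprdx1+H2O2+FV library (0.0507 to 0.123), and that of Mlxip without siprdx1+H2O2+FV library 2 (0.0617). The Slc16a6 call in siNC was lost without siNC+H2O2 library 1 (0.139) or 3 (0.132) or siNC+H2O2+FV library 2 (0.148) or 3 (0.0812), and by DESeq2 (0.0507).

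Of 49 further genes of the hypoxia response 48 were tested. With fluvastatin 14 rose and 5 fell in siNC, and 15 rose and 8 fell in siprdx1, beside the same shares of all genes, 13.5% and 11.3% in siNC and 12.6% and 11% in siprdx1 (medians 0.03 and -0.02, all genes -0.01 in both). Among those that rose were Errfi1, a feedback inhibitor of the EGF receptor (log2 3.15 ± 0.05 in siNC and 3.28 ± 0.05 in siprdx1; 276 to 2456 CPM in siNC), and the repressor Bhlhe40 (1.86 ± 0.06 and 1.96 ± 0.06). Nfil3 rose by 1.30 in siNC and 1.38 in siprdx1, and Hilpda, a lipid droplet protein, by 1.18 and 1.47. Hif3a, a HIF subunit whose short forms oppose HIF-1, fell by 0.68 ± 0.11 in siNC and by 0.95 ± 0.11 in siprdx1, and Stc2 fell by 0.37 and 0.45, Zfp292 by 0.33 and 0.48, Narf by 0.44 and 0.23, and Rsbn1 by 0.32 in siprdx1. H2O2 alone raised Cited2, which competes with HIF-1 for its coactivator, in both arms (log2 0.38 in each) and lowered Hif3a (-0.64 and -0.58). In siNC it also raised Ddit4 (0.53), Higd1a (0.40) and Fam162a (0.28), and in siprdx1 Angptl4 (0.26) and Ndrg1 (0.19). With knockdown, Epas1, which encodes HIF-2α, was lower without H2O2 (log2 -0.29, adjusted p = 0.00784), after H2O2 (-0.28, 0.0123) and after fluvastatin (-0.33, 0.00209). In the same order of comparisons Adm was higher (log2 0.23, 0.19 and 0.18, adjusted p = 0.00499, 0.0228 and 0.02). Angptl4 was lower without H2O2 (-0.28, 0.00625), Higd1a after H2O2 (-0.34, 0.0161) and Plod2 after fluvastatin (-0.31, 0.0199). The Epas1 calls were lost without siNC library 3 (0.0722) or siprdx1 library 1 (0.0745) in untreated cells, and after H2O2 without library 1 (0.0675) or 3 (0.068) of siNC+H2O2 or 1 (0.0527) or 3 (0.0634) of siprdx1+H2O2. The Zfp292 call in siNC was lost without siNC+H2O2 library 2 (0.0968) or siNC+H2O2+FV library 3 (0.0722), that of Rsbn1 without siprdx1+H2O2 library 1 (0.277) or any 1 siprdx1+H2O2+FV library (0.0761 to 0.136), that of Narf in siprdx1 without siprdx1+H2O2 library 3 (0.0941) or siprdx1+H2O2+FV library 1 (0.0526), that of Ndrg1 without siprdx1 library 1 (0.0725), that of Ddit4 without siNC library 2 (0.12) or siNC+H2O2 library 3 (0.108), and that of Fam162a without any 1 of the 6 libraries (0.0655 to 0.119).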

How the data were processed

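RNA-seq was measured in 18 libraries (6 groups of 3). The values are raw read counts per gene as deposited by the authors. Per the submitters' processing notes, HISAT2, HTSeq and the mm10 build were used; versions, annotation, strand setting and the treatment of multiply mapped reads are not given in the sources used here.

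Counts were tested with edgeR 4.0.16 (quasi-likelihood, TMM scaling, filterByExpr, 1 model with 6 group means) in R 4.3.3 with limma 3.58.1, and p-values were adjusted (Benjamini-Hochberg) over all 16432 genes tested within each of 12 contrasts, with a threshold of 0.05. DESeq2 1.42.0 was an alternative. CPM are counts divided by the TMM-scaled library size, and levels between genes are per kb of all GENCODE M21 exons of a gene joined. Near-identical copies were sought with blastn 2.17.0+. Members and gene lists were chosen with earlier results of these data known.

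Values are printed for every library for genes that passed a pairwise contrast at an absolute log2 fold change of 0.5 or more, or an interaction; genes of the other lists are named where they passed with groups that did not overlap, up to 4 a direction, for selected contrasts; 1 gene that this rule would name is not reported here. Same-numbered libraries deviated together in each pair only for H2O2 in siNC (r = 0.135, 0.135 and 0.118). For H2O2 in siprdx1 the values were 0.178, 0.256 and -0.00634. Differently numbered libraries were not compared, so these values do not show what a shared number stands for. Totals of 15201530 to 23898435 counts set the precision, with a biological coefficient of variation of 7.01%. Offsets for GC and length, and leaving out siprdx1+H2O2 libraries 1 and 2 together, were chosen after seeing the data. The wording "library" with a number means the replicate of that number.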

Additional observations from a re-analysis of the deposited data

Results flagged for a closer look

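The response of Slc2a1 to fluvastatin differed between the siRNA arms by a test of the difference itself. The rise was larger in siprdx1 than in siNC by log2 0.51 ± 0.11 (adjusted p = 0.0233), with 3 libraries a group: 84.1, 81.0 and 92.3 CPM in siNC+H2O2+FV and 121, 127 and 126 CPM in siprdx1+H2O2+FV. All 3 siprdx1 values were higher. The call was lost, with log2 values from 0.43 to 0.53 and adjusted p from 0.0504 to 0.0952, without siNC+H2O2 library 1 or 3, siNC+H2O2+FV library 1 or 2, siprdx1+H2O2 library 1 or 3, or any siprdx1+H2O2+FV library. Without siprdx1+H2O2 libraries 1 and 2 together, which leaves 1 library in that group, the value was 0.48 (adjusted p = 0.112).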

How the results depend on the processing

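Counts of the 35 genes called depended on the processing as follows; except where fewer samples or a stricter criterion made the alternative, the cause was not tested. Scaling by library totals alone gave 3 lower for H2O2 in siprdx1 (1 in the main test; 6.89% of all genes), 13 and 5 lower for fluvastatin in siNC and siprdx1 (6 and 2; 23.3% and 22.1%), 11 and 7 lower for H2O2 and fluvastatin in siNC and siprdx1 (2 and 1; 24.4% and 27.4%), and 2 higher and 3 lower for knockdown averaged (1 and 5; 5.95% and 4.38%). DESeq2 gave 2 lower for H2O2 in siprdx1 (5.76% of all genes). Without the low-count filter, 6 rose with H2O2 in siNC (3 in the main test, 1.67% of all genes here) and 1 fell with knockdown without H2O2 (0, 1.04%). In the same setting 2, 2 and 3 were higher for knockdown averaged, knockdown after fluvastatin and the fluvastatin interaction (1 each, and 2.37%, 1.32% and 0.554%). Fitting only the compared groups gave 0 higher for H2O2 in siprdx1 (0.64% of all genes) and 1 lower for fluvastatin in siprdx1 (8.83%). A minimum log2 change of 0.5 left 0 higher for H2O2 in either arm (0.663% of all genes in siNC, 0.377% in siprdx1) and 0 lower for H2O2 in siprdx1 (3.09%). It left 1 and 0 lower for fluvastatin in siNC and siprdx1 (4.24% and 3.75%) and 0 lower for both combined comparisons (4.99% and 5.32%). It left 7 higher for the combined comparison in siprdx1 (11 in the main test, 5.21%) and 1 lower for knockdown after H2O2 (3 in the main test, 0.7%). For knockdown averaged 0 were left in either direction (0.359% higher, 0.536% lower).

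With the replicate number as a replicate block, 5 genes rose with H2O2 in siNC (3 without the block, and 3.23% of all genes with it), and no other count moved by over 1.5 times. In the contrasts other than H2O2 in siNC, same-numbered libraries did not deviate together in each pair, although some pairs did. There the block ended no call. It added Egln3 (higher, log2 0.51, adjusted p = 0.0479), Pdk1 (lower, 0.0362) and Pgk1 (lower) for fluvastatin in siNC. Further additions were Ldha (higher) for fluvastatin in siprdx1 and Pgk1 (lower) for knockdown after H2O2. GC and length offsets, without and with the replicate block, gave 10 and 10 higher for H2O2 in siNC (4.02% and 4.86% of all genes), 3 and 4 higher (6.42% and 7.35%) and 3 and 3 lower (7.14% and 7.64%) for H2O2 in siprdx1, 4 and 4 lower for fluvastatin in siprdx1 (17.5% and 18.1%), 2 and 3 lower for the combined comparison in siprdx1 (17.6% and 18.1%), 8 and 10 lower for knockdown after H2O2 (4.06% and 4.74%), 1 and 1 lower for knockdown without H2O2 (3.53% and 3.91%), and 3 and 5 higher for knockdown averaged (8.19% and 8.9%). With the block the offsets also gave 9 lower for knockdown averaged (9.34%), 1 higher for knockdown without H2O2 (2.37%), 1 lower for knockdown after fluvastatin (4.69%), 1 lower for the H2O2 interaction (0.901%) and 4 higher for the fluvastatin interaction (1.72%). Without siprdx1+H2O2 libraries 1 and 2 together, 1 library is left in that group and the other groups give the spread, so these counts do not show a dependence on those libraries: 0 fell with fluvastatin in siprdx1, 0 were lower with knockdown after H2O2, 2 were lower with knockdown averaged and 0 passed the fluvastatin interaction.

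Leaving out 1 library at a time gave 0 to 5 higher for H2O2 in siNC, 1 to 2 higher and 1 to 2 lower for H2O2 in siprdx1, 7 to 9 higher and 2 to 5 lower for fluvastatin in siNC, 7 to 9 higher and 0 to 3 lower for fluvastatin in siprdx1, 9 to 10 higher and 1 to 2 lower for the combined comparison in siNC, 9 to 12 higher and 0 to 1 lower for it in siprdx1, 0 to 1 lower for knockdown without H2O2, 0 to 3 lower for knockdown after H2O2, 1 to 2 higher and 3 to 6 lower for knockdown averaged, and 0 to 1 higher for the fluvastatin interaction. Signs changed for 4 uncalled gene values. Eno1 for H2O2 in siprdx1 was -0.0289 with library totals, -0.0027 with only the compared groups, and -0.0121 to 0.0357 leaving out 1 library, below 0 without siprdx1 library 3 or siprdx1+H2O2 library 3 (-0.0054). Gapdh for fluvastatin in siNC ranged from -0.146 to 0.067 leaving out 1 library, above 0 without library 1 of siNC+H2O2 (0.0324) or of siNC+H2O2+FV. For fluvastatin in siprdx1, Pfkfb4 ranged from -0.136 to 0.0256, above 0 without siprdx1+H2O2 library 2, and Tpi1 from -0.0397 to 0.0247, above 0 without siprdx1+H2O2 library 2 or 3 or siprdx1+H2O2+FV library 2 or 3. The low counts of Egln3 (35 to 125) and Ankrd37 (14 to 54) limit their precision.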
